A study of Mus musculus with 6 samples.

Results

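The motile cilia axoneme genes described here are 62 of the 18193 genes that the arrays name singly. They were taken by name: every gene whose symbol begins with Dnah, Dnaic, Dnali or Dnaaf, or with Tekt, Rsph or Cfap and a number, or with Spag6, Spag16 or Spag17, together with Foxj1, Hydin, Ccdc39 and Ccdc40. The 62 genes have 102 probe sets, and 1 probe set, the brightest on average across the 6 arrays, stands for each gene. The labels give all 6 samples as BALB/c AJ retinas taken on post-natal day 40 without the pigment epithelium, a label that the values of 1 array go against. Wild-type mice (wt/wt) gave 3 arrays and mice homozygous for the Nxnl2 knockout (ko/ko) are named on the other 3. The labels mention no transgene, treatment or pooling and do not say whether replicates are separate animals, so errors and p-values describe only how far these samples scatter, possibly for technical reasons, and the number of arrays limits their precision.

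The axoneme is the microtubule core of a cilium, in which doublet microtubules surround, in motile cilia, a central pair. Outer and inner dynein arms on the doublets slide them past each other, and radial spokes and the central apparatus regulate that sliding. FOXJ1, together with RFX factors, switches on the genes of this machinery in multiciliated cells, such as those of airway and ependyma. The outer segment of a photoreceptor is joined to its cell body by a cilium that has no central pair and does not beat.

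One array stands apart and has to be described first. Nxnl2, the deleted gene, read 9.21 (log2) at its brighter probe set in the array labelled knockout replicate 3, against 3.78 in knockout replicate 1, 3.73 in knockout replicate 2 and 11.38 in wild-type replicate 1. That array correlated with the others at r = 0.848 to 0.854 over probe sets, whereas the other 5 arrays correlated among themselves at 0.994 to 0.996. Rod photoreceptor genes had a median level of 4.13 there and of 13.1 to 13.2 in the other 5, with 23 of 24 lower by over 2 log2 units. Olfactory neuron genes had a median of 11.3 there and 7.11 to 7.37 elsewhere, and nasal and airway secretory genes one of 12.6 against 3.54 to 3.80. Both its genotype label and its tissue label are therefore in doubt. The part of these other cell types in the axoneme values was not tested, and in bulk RNA a change in the number of cells of a type cannot be told apart from a change in RNA per cell. The array is called by its label throughout and is set against the other 5. With 1 array on that side no test was made, and a gene was counted as above or below when it differed from the mean of the other 5 by over 2 log2 units (4-fold).

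Of the 62 axoneme genes, 24 (38.7%) stood above the other arrays by that limit in the array labelled knockout replicate 3, where 7.44% of all 18193 genes did. None stood below by that limit, against 4.49% of all genes. In a further count, values of the other 5 arrays under their background level (defined with Foxj1, further on) were raised to that level. By it 19 members stood above the limit, while the 7.44% of all genes was counted without this step. Cfap161, Dnah12, Cfap300, Tekt2 and Cfap45 were the 5 that no longer did. The median difference was 1.55 over the members and -0.05 over all genes. By the looser limit of 1 log2 unit, 36 members were above (background 15.8%) and 2 were below (background 11.5%). The value exceeded each of the other 5 arrays for 48 members (77.4%, background 36.5%) and was under each of them for 8 (12.9%, background 42.4%). In the other 5 arrays no member differed by 1 log2 unit from the mean of the remaining 4, the furthest being Cfap70 at 0.57 in knockout replicate 1.

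**Figure D1:**
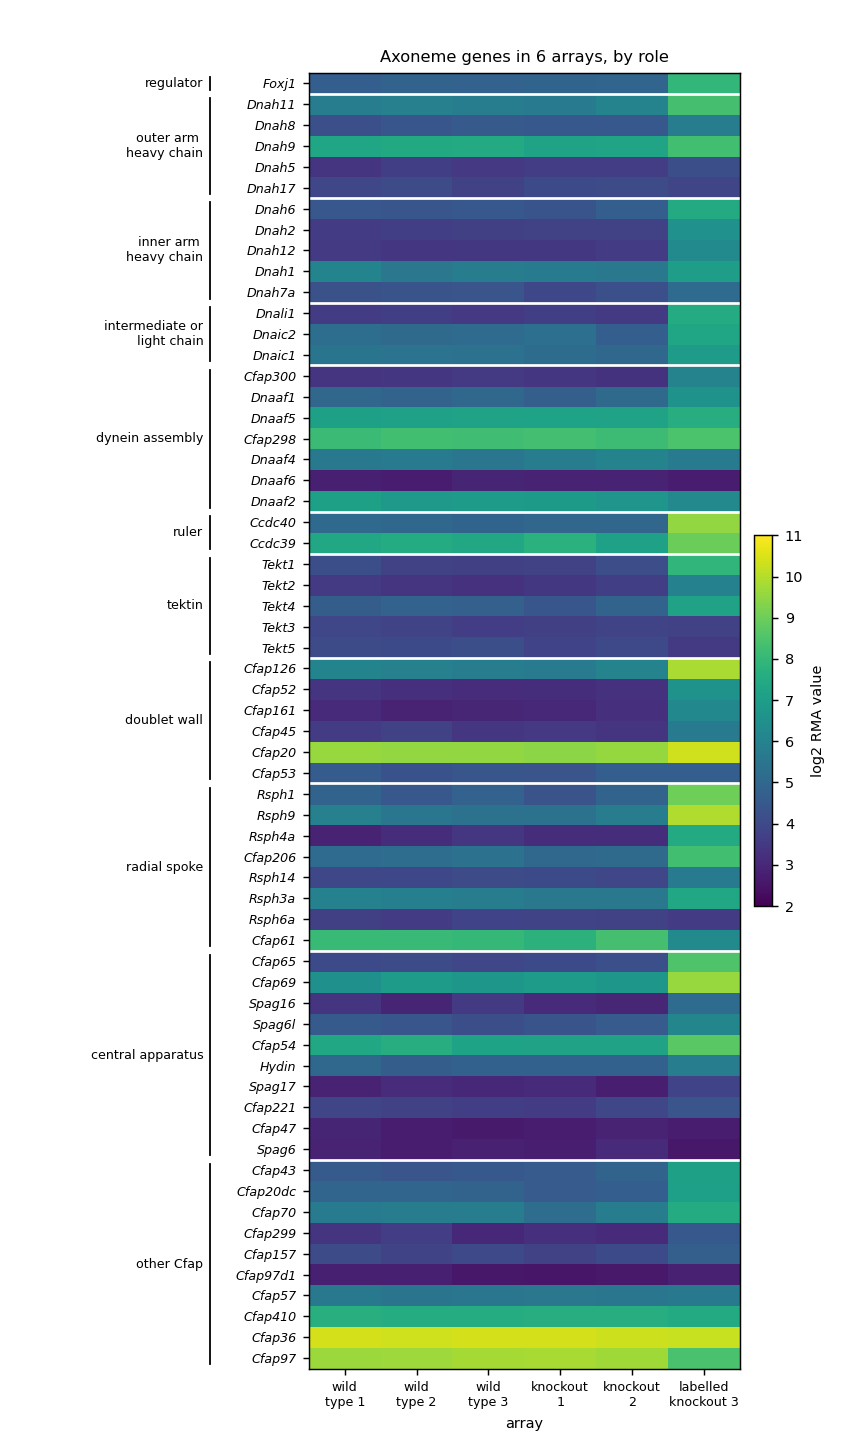
Heat map of the log2 RMA value of each of the 62 axoneme genes (rows, grouped by role) in the 6 arrays (columns). The 5 left columns look alike within a row, and the right column, the array labelled knockout replicate 3, is brighter for most genes of most roles, with Ccdc40 at 9.53 against 4.91 to 5.09 in the others, while Cfap61 and Cfap97 are darker there.

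The promoters of a minority of the members held a sequence feature that the choice of genes did not use. RFX factors bind the X-box, written here as GTTNCC, then 2 bases of any kind, then its inverted copy GGNAAC. A relaxed form, GTNNCC and GNNAC with 3 bases of any kind between them, was searched on both strands from 250 bases before to 50 bases after each start in RefSeq (GRCm38.p6). It was found for 17 of the 52 members listed there (32.7%) and for 5.26% of 27025 genes. The strict form was found for 3 members (5.77%, against 0.529% of genes), and the single arm GTTGCC, which overlaps both forms, for 18 (34.6%, against 14.1%). The forkhead motif TGTTTAC was found for 4 (7.69%, against 4.05%). The relaxed form was held by 8 of the 20 listed members above the 2-unit limit (40%) and by 9 of the 32 others (28.1%), so it occurred on both sides of the limit. These are counts of letters, not of bound sites.

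The windows that follow show the relaxed form in capitals, read 5′ to 3′ on the gene's strand and ending no later than the start, in order of the members' differences, from Tekt1 at 4.02 to Dnaaf2 at -0.66. The first 5, down to Cfap20dc and Cfap45, are past the 2-unit limit, and Spag16, Cfap298 and Dnaaf2 are not.
Tekt1 (chr11:72361883-72361922, minus strand): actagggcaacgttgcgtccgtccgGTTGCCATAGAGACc
Cfap126 (chr1:171122938-171123001, plus strand): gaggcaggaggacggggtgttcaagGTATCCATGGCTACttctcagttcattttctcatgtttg
Cfap206 (chr4:34730207-34730254, minus strand): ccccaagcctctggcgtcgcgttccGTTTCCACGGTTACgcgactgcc
Cfap20dc (chr14:8666354-8666417, minus strand): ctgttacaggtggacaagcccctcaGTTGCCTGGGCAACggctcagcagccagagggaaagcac
Cfap45 (chr1:172521086-172521129, plus strand): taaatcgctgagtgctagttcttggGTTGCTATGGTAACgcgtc
Spag16 (chr1:69826842-69826905, plus strand): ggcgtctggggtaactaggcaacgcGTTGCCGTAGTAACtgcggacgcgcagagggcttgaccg
Cfap298 (chr16:90934999-90935062, minus strand): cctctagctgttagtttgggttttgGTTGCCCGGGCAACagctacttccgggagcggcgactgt
Dnaaf2 (chr12:69198430-69198471, minus strand): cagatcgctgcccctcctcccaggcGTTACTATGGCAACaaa
The windows of Cfap20dc and Cfap298 hold the strict form. These windows are a selection. Dnaaf6, which also has the strict form and was at background in all 6 arrays, is not shown. Upstream windows of Dnah2, Tekt4, Hydin, Dnaaf5 and Dnah17 and a further one of Cfap20dc are left out too. In Cfap45 and Dnaaf2 the capitals match the relaxed form on the opposite strand only.

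Foxj1, the master regulator of motile cilia, stood among the genes that were higher. It read 4.70, 4.85 and 4.83 in wild-type replicates 1 to 3, and 4.89 and 4.95 in the first 2 knockout replicates. The array labelled knockout replicate 3 read 7.95. This was 3.10 log2 units, or 8.60-fold, above the mean of the other 5 (4.85 ± 0.09, SD, n = 5). Values for other genes follow in the same order of arrays. Background was taken as the brightest Bacillus control probe set of each array, which has no mouse target and read 4.13 to 4.60. Foxj1 lay above it in all 6 arrays. Where all of the other 5 arrays were at or under their controls, a fold is given as a lower bound, with each such value raised to the control.

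The heavy chains are the motors of the dynein arms. The 5 of the inner arms stood higher by 0.93 to 3.02, with 3 of 5 past the limit (all genes 7.44%). Dnah6 read 4.44, 4.42, 4.47, 4.35 and 4.68, then 7.49 in the array under that label. Dnah2 read 3.55, 3.66, 3.71, 3.74 and 3.77, then 6.54, at least 4.63-fold higher, while its dimmer probe set, at background in all 6 arrays, differed by 0.07. Dnah12 read 3.53, 3.44, 3.47, 3.47 and 3.59, then 6.27, at least 3.84-fold higher. For these 3 chains the last array lay above each of the other 5, as it did for 36.5% of all genes. The other 5 were near or under background. Dnah1 stood 1.30 higher. Dnah7a, which has close copies in the mouse genome whose transcripts may bind the same probes, read 4.24, 4.33, 4.38, 3.96 and 4.18, then 5.15.

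Among the 5 outer-arm chains only Dnah11 passed the limit (all genes 7.44%). Dnah11, mutated in human ciliary dyskinesia, read 5.82, 5.92, 5.82, 5.75 and 6.04, then 8.34, which is 5.52-fold higher. Dnah9, a chain of airway outer arms, was well above background in retina by its brighter probe set, at 7.36 ± 0.13 (SD, n = 5), and read 8.29. The dimmer probe set of Dnah9 averaged 4.08 in the other 5 arrays and differed by 0.01. Dnah5, the other main chain of airway outer arms, read 3.56 ± 0.12 (SD, n = 5) and then 4.15, a value level with the control of that array (4.13). Its probe set therefore gave no usable difference. Of the chains known from sperm flagella, Dnah8 stood 1.37 higher at 5.80, and Dnah17 stayed at background in all 6 arrays.

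Intermediate and light chains, which anchor and regulate the motors, were all higher. Dnali1, a light chain of inner arms, read 3.60, 3.66, 3.50, 3.66 and 3.54, then 7.52. With the other 5 at background this is at least 9.13-fold. Dnaic2, an outer-arm intermediate chain, read 5.24, 5.11, 5.15, 5.28 and 4.67, then 7.31, while its dimmer probe set differed by 0.14. Dnaic1, its partner in the outer arm, stood 1.64 higher and fell short of the limit. For these 3 genes the last array read above each of the others, as it did for 36.5% of all genes. The probe sets that stand for Dnaic2 and Dnaic1 are of a kind that can bind transcripts of other genes too.

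The factors that assemble dynein arms in the cytoplasm had a median difference of 0.25 over 7 genes, with 1 past the limit (all genes 7.44%). That gene was Cfap300, at 3.34, 3.43, 3.54, 3.42 and 3.33, then 6.03, at least 3.26-fold higher. Dnaaf1, which is needed for arms of motile cilia, stood 1.66 higher at 6.59, while its dimmer probe set differed by -0.13. Dnaaf5 and Cfap298, both well above background in retina by their brightest probe sets at 7.17 ± 0.04 and 8.22 ± 0.08 (SD, n = 5), stood only 0.44 and 0.25 higher. The dimmer probe sets of Dnaaf5 averaged 4.19, 2.95 and 2.78 in the other 5 arrays and differed by -0.59, -0.02 and 0.01. The dimmer probe sets of Cfap298, also above background in every array, differed by 0.15, -0.47 and -0.59. Dnaaf4 (5.74 ± 0.18, SD, n = 5) read 5.68, inside the range of the other arrays. Dnaaf2 (6.90 ± 0.16, SD, n = 5) read 6.24, under each of the other arrays (all genes 42.4%), while its dimmer probe set differed by 0.10. Dnaaf6 was at background throughout.

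Ccdc39 and Ccdc40 form the molecular ruler that sets the repeat of dynein arms and spokes along the doublet. Ccdc40 had the largest difference of all members, with 5.09, 5.05, 4.91, 4.97 and 4.96, then 9.53, a 23.2-fold excess. Ccdc39 was already at 7.45 ± 0.22 (SD, n = 5) in the other arrays and read 8.97. Its representing probe set is of a kind that can bind transcripts of more than 1 gene, and its other 2 probe sets were under 4 in every array.

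Tektins are filament proteins of the doublet wall, and they fell into those higher and those at background. Tekt1 read 4.17, 3.78, 3.69, 3.77 and 4.14, then 7.93, at least 12.2-fold higher. Tekt4 read 4.66, 4.84, 4.77, 4.42 and 4.86, then 7.19, and Tekt2 read 3.53, 3.38, 3.30, 3.45 and 3.66, then 5.97, at least 3.12-fold higher. Tekt3 and Tekt5, known from sperm, were at or under the controls in all 6 arrays, and Tekt5 had its lowest value, 3.54, in the array labelled knockout replicate 3.

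Of 6 further proteins placed in the doublet wall, 4 passed the limit (all genes 7.44%). All 6 read higher there than in each other array (all genes 36.5%). Cfap126 (Flattop) read 6.05, 5.93, 5.80, 5.76 and 6.03, then 9.85, which is 15.3-fold higher. Cfap52 read 3.38, 3.24, 3.15, 3.18 and 3.30, then 6.63, at least 4.92-fold higher. Cfap161 read 3.06, 2.89, 2.98, 2.99 and 3.25, then 6.19, at least 3.64-fold higher. The last array was above each of the other 5 for these 3, as for 36.5% of all genes. Cfap45 read 3.61, 3.75, 3.44, 3.49 and 3.39, then 5.71, a difference of 2.18 that is nominally inside the limit. As the other 5 arrays were at background, the values give only a bound of at least 2.61-fold. Cfap53 stood 0.21 higher, with 4.68 against at most 4.67 in the others. Cfap20, which is found in the ciliary base and doublets of many cell types, was already high in retina and is described further on.

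Radial spokes carry signals from the central pair to the arms, and their head proteins gave some of the widest gaps. Rsph1 read 4.88, 4.46, 4.83, 4.29 and 4.87, then 9.03. Rsph9 read 5.92, 5.52, 5.37, 5.38 and 5.76, then 9.92. Rsph4a read 2.89, 3.19, 3.41, 3.19 and 3.19, then 7.50. These 3 spoke-head genes stood 4.36, 4.33 and 4.33 higher. For Rsph4a, which was at background elsewhere, that is at least 9.03-fold. Their counterpart in sperm, Rsph6a, was at background in all 6 arrays, with 3.61 in the last.

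The remaining spoke genes differed in size and in sign. Cfap206, which helps to dock a spoke, read 5.15, 5.22, 5.35, 5.04 and 5.09, then 8.27, an 8.58-fold excess. Rsph14 read 3.94, 3.96, 4.06, 4.02 and 3.93, all at background, then 5.73, at least 2.64-fold higher. Rsph3a, which has a close copy in the genome, read 5.95, 5.89, 5.82, 5.59 and 5.61, then 7.35. Cfap61, assigned to the third spoke, went the other way: it read 8.09, 8.10, 7.98, 7.80 and 8.33, then 6.28, or 1.78 below the others. It was the member furthest below, and its other 2 probe sets differed by -0.02 and -0.03.

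The central apparatus, the structure around the central pair that photoreceptor cilia lack, was mixed, with a median difference of 1.17 over 10 genes. Cfap65 read 4.03, 4.06, 3.90, 4.04 and 4.19, then 8.52, at least 18.3-fold higher. Cfap69, which is also known from olfactory neurons, read 6.52, 6.98, 6.76, 6.93 and 6.76, then 9.62, 7.13-fold higher. These were the 2 past the limit (all genes 7.44%). Spag16 read 3.38, 2.95, 3.52, 3.09 and 2.98, all at background, then 5.15, at least 1.77-fold higher. Spag6l and Cfap54 stood 1.73 and 1.38 higher, Cfap54 from a level of 7.32 ± 0.17 (SD, n = 5). The dimmer probe set of Cfap54 was at background in all 6 arrays and differed by 0.03. Hydin, a very large protein of the central pair, stood 0.96 higher at 5.78. Cfap221, at background in the other 5 arrays, read 4.37, at least 1.03-fold higher, while Spag17, Spag6 and Cfap47 were at background in all 6 arrays.

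The other Cfap genes, named for a cilium or flagellum without a shared place in it, stood between -1.33 and 2.56. Cfap43 read 4.55, 4.37, 4.47, 4.60 and 4.85, then 7.13. Cfap20dc, just inside the limit, read 4.95, 4.92, 4.88, 4.58 and 4.70, then 7.09. Cfap70, just outside it at 1.89, read 5.71, 5.81, 5.78, 5.20 and 5.78, then 7.55. The last array was above each of the other 5 for these 3 genes, as for 36.5% of all genes. Cfap299 and Cfap157 were at background in the other 5 arrays and read 4.49 and 4.73, at least 1.11-fold and 1.32-fold higher. Cfap57 and Cfap410 differed by 0.08 and -0.12, and Cfap97d1 was at background throughout. The 3 members nearest the limit on its upper side were Cfap45 (2.18), Dnaic2 (2.22) and Cfap20dc (2.28), and those on its lower side were Spag16 (1.97), Cfap70 (1.89) and Rsph14 (1.75). For Cfap45, Spag16 and Rsph14 that order rests on values at background in the other 5 arrays.

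**Figure D2:**
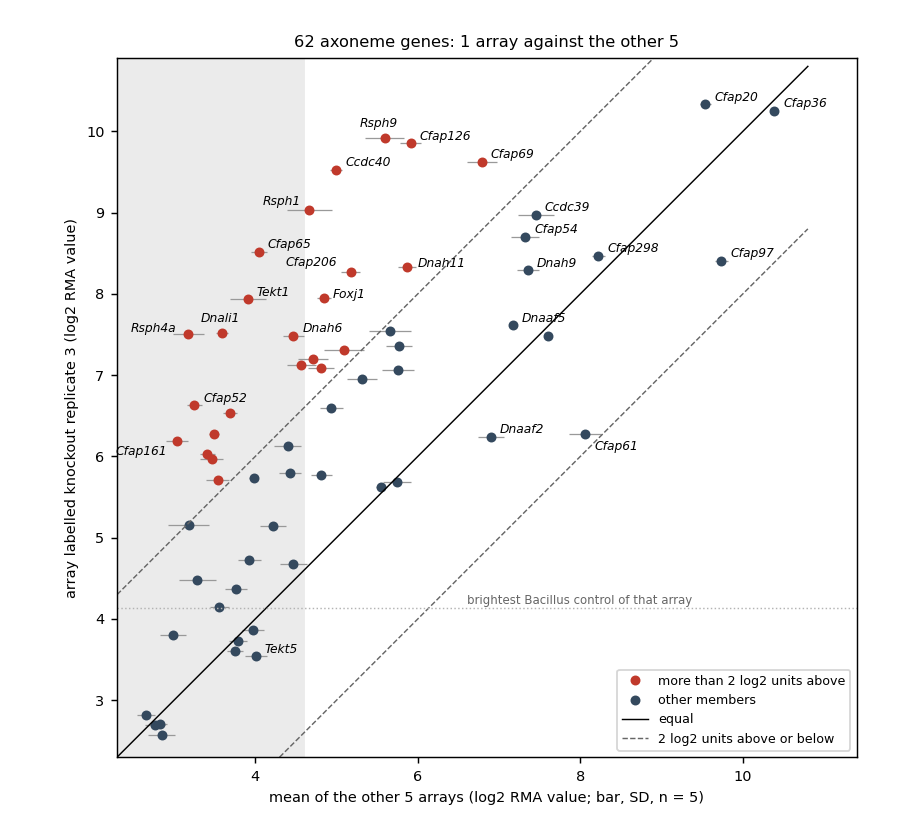
Each dot is 1 of the 62 axoneme genes, with its mean over the other 5 arrays (log2 RMA value, bar SD, n = 5) on the horizontal axis and its value in the array labelled knockout replicate 3 on the vertical axis. Grey shading marks means up to 4.60, the highest Bacillus control of those 5 arrays, and the 24 red dots lie above the upper dashed line of 2 log2 units, whereas Cfap36, Cfap20 and Cfap97, the members high in retina, do not.

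Most of this machinery was dim in the other 5 arrays, whose retinal genes were high. In those arrays 29 of the 62 genes were above the Bacillus control in all 5, 26 were above it in none, and 9 of the 26 were at background in the last array too. Of all 18193 genes, 13097 were above it in all 5 and 3862 in none, and 2977 were at background in the last array too. Of the 24 genes past the limit, 11 were at background in all of the other 5 arrays and 10 were above it in all 5. Only 3 members were high in retina, that is in the upper 25% of all genes (over 8.53). None of those 3 passed the limit in the array labelled knockout replicate 3.

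The members high in retina were Cfap36, Cfap20 and Cfap97, which are not parts of the beating machinery alone. Cfap36, a binding partner of the ciliary trafficking GTPase ARL3, read 10.41, 10.37, 10.42, 10.41 and 10.32, then 10.25. Cfap20 read 9.61, 9.56, 9.53, 9.44 and 9.56, then 10.34, or 0.80 higher. Its probe set can also bind transcripts of other genes, and the dimmer probe set of Cfap20 differed by 0.83. Cfap97 read 9.65, 9.69, 9.80, 9.83 and 9.71, then 8.41, or 1.33 lower. Cfap36 and Cfap97 thus read under each of the other arrays (all genes 42.4%) and Cfap20 above each (all genes 36.5%). Cfap410, linked to inherited retinal disease, read 7.60 ± 0.02 (SD, n = 5) and 7.49. Cfap97 and Cfap61 were the 2 members lower by over 1 log2 unit, in the array where 23 of 24 rod genes were lower by over 2. The part of the lower rod transcripts in these 2 values was not tested.

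Several members have probe sets that disagree. Of the 102 probe sets, 30 stood higher by over 2 log2 units and 1 stood lower by as much, a dimmer one of Cfap97 at -2.76. At background in all 6 arrays were 26 probe sets. No such counts were made over all probe sets, so no share of all probe sets stands beside these. Cfap57, at 0.08 by its brighter probe set, stood 2.08 higher by the dimmer one. Cfap43 stood 2.56 higher by the brightest, 3.82 by the second and -0.19 by the dimmest. Spag16 stood 1.97 higher by the probe set used here and between -0.22 and 0.21 by its other 3, and Dnali1 stood 3.93 and 2.05 higher by its 2. With the mean of all probe sets per gene, 21 members instead of 24 passed the limit, as did 1139 of all 18193 genes. Dnah2, Cfap20dc and Dnaic2 were then under it, the last 2 at 1.12 and 1.18, and Cfap61 lay at -0.61.

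Other axoneme genes, come from a wider list of names that excludes the 62. Of 88 measured, 37 stood above the 2-unit limit (all genes 7.44%) and 0 below (all genes 4.49%), and the median difference was 1.56. Pifo, a regulator of cilium disassembly, read 9.82 against a mean of 4.24 in the other 5 arrays. Fam183b read 8.81 against 3.74, Dynlrb2, a dynein light chain, 10.33 against 5.41, and Ccdc153 8.91 against 4.06. In the other direction Wdr78, a dynein intermediate chain, read 7.28 against 8.54, Enkd1 6.71 against 7.51 and Arl3 11.11 against 11.66. Among genes not particular to motile cilia, Tubb4b, the main ciliary beta-tubulin, read 12.02 against 10.25.

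Of 14 regulators of multiciliated cells other than Foxj1, 1 stood above the limit, a share near that of all genes (7.44%), and 0 below, with a median difference of 0.43. Foxa1, a forkhead factor of many epithelia, read 7.89 against 3.16. Myb read 8.26 against 6.27, the RFX factor gene Rfx3 10.13 against 8.53, and Deup1, which builds the deuterosome that multiplies centrioles, 5.33 against 3.80. Ccno, a cyclin-like regulator of the same step, read 5.31 against 4.20. Rfx1 and E2f4 went the other way, with 7.69 against 8.48 and 7.10 against 7.46. Each was under all of the other 5 arrays, as were 42.4% of all genes. Cdc20b, Foxa2 and Rfx4 were at background in all 6 arrays.

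Genes of intraflagellar transport, the carriage of cargo along the axoneme that sensory and motile cilia both use, were all above background in every array. Of 28 genes 0 stood above the limit (all genes 7.44%) and 0 below it (all genes 4.49%), and the median difference was 0.37. Traf3ip1 (1.65), Ift172 (1.23) and Ift43 (1.07) stood highest, and Ttc21b (-1.33) and Wdr60 (-1.19) lowest.

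Markers of other tissues in the same array are given beside these. In the nasal and airway secretory list 18 of 20 genes passed the limit (all genes 7.44%), among them Obp1a and Bpifa1, each at 14.12. The club cell genes Scgb1a1 and Scgb3a2 were at background in all 6 arrays. In the olfactory neuron list 11 of 18 passed and 3 stood lower (all genes 7.44% and 4.49%). The olfactory marker protein gene Omp was at 12.61 against 5.44. Ependyma and choroid plexus, other sites of motile cilia, were represented by a list of 14 genes. Of these Clic6 and Cldn2 stood above the limit (all genes 7.44%). Ttr (7.40 against 12.56), Kcne2 (3.23 against 9.45) and Slc4a5 (3.61 against 7.78) stood below it (all genes 4.49%). These 3 were above background in each of the other 5 arrays. Otx2 is both in this list and among the general retinal genes, so the list is not particular to choroid plexus. The choroid plexus gene Kl was at background throughout. Of 17 general retinal genes 11 stood below the limit (all genes 4.49%).

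**Figure D3:**
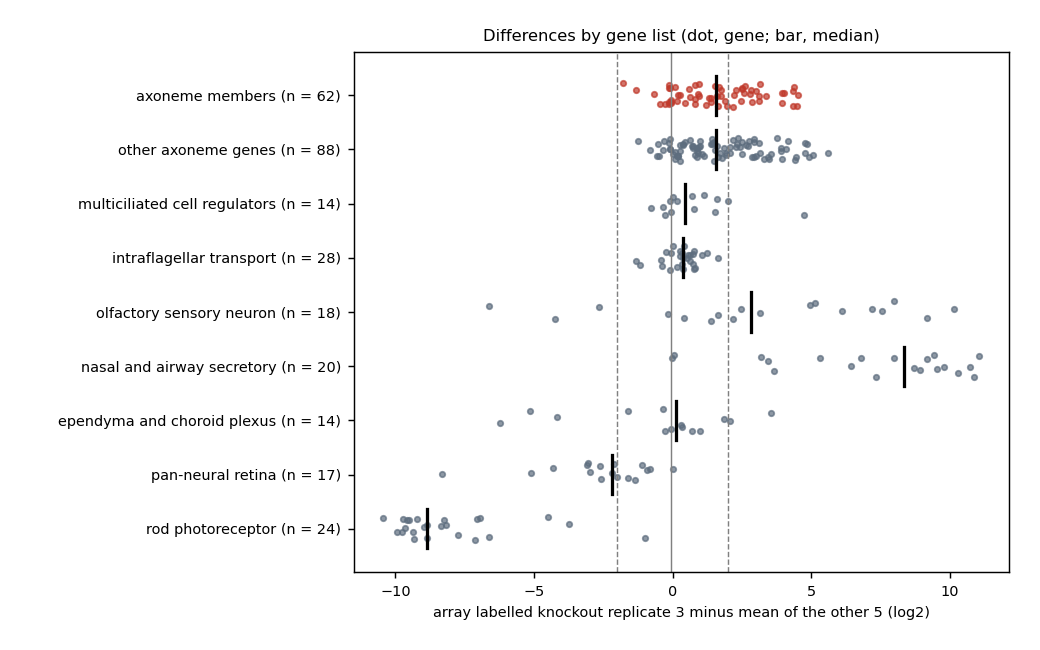
Each dot is a gene, placed by its value in the array labelled knockout replicate 3 minus the mean of the other 5 (log2), for the 62 axoneme genes and 8 other lists; black bars are medians, the grey line is the median of all genes (-0.05) and dashed lines mark 2 log2 units either way. The axoneme members (median 1.55) and other axoneme genes (1.56) lie between the transport genes (0.37) and the nasal secretory genes (8.34), and rod genes lie far to the left (-8.86).

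The comparison the study was designed for, knockout against wild type, gave no axoneme gene. With all 6 arrays limma called 0 of the 62 members, as it called 0 (0%) of all genes, and the smallest adjusted p of a member was 0.745. An unadjusted p under 0.05 was reached by 0 members, against 0.726% of all genes. The median change was 0.36 over the members and 0.00 over all genes, and 53 of the 62 were above 0. Ccdc40, for example, stood at 1.47 (SE 1.30) and Foxj1 at 1.13 (SE 0.87). With arrays weighted by their fit, which lowers the weight of an array that deviates, the median change of the members was 0.02.

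Without that array the median change of the members was 0.00, with 31 of 62 above 0. In this comparison of 3 wild-type and 2 knockout arrays limma again called 0 of the 62 members, against 0.011% of all genes (2 genes), and every member had an adjusted p of 0.999 or more. The changes ran from -0.33 to 0.26 with SEs of 0.09 to 0.18. Ccdc40 stood at -0.05 (SE 0.10) and Foxj1 at 0.12 (SE 0.09). Groups did not overlap for 13 members (21%, background 16.5%).

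An unadjusted p under 0.05 was reached by 5 members (8.06%, background 3.45%), none of which passed after adjustment. Dnaic1 stood at -0.33 (SE 0.09), with 5.50, 5.42 and 5.41 in wild type and 5.17 and 5.06 in knockout. Rsph3a stood at -0.29, Cfap20dc at -0.28, Dnah7a at -0.25 and Cfap43 at 0.26. Of these 5 genes 4 were lower in knockout and 1 was higher. Their groups did not overlap (all genes 16.5%). That is no separate result, as a small p on the same arrays chose them. Among the 88 other axoneme genes and the 28 transport genes limma also called 0.

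**Figure D4:**
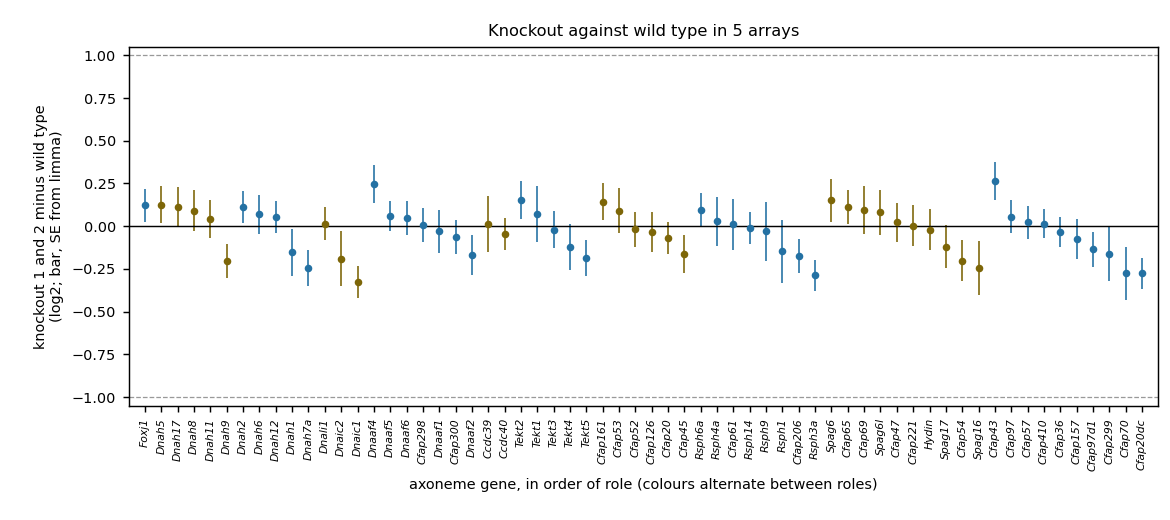
Change of each axoneme gene between knockout replicates 1 and 2 and the 3 wild-type arrays (log2, dot) with its SE from limma (bar), in order of role. All 62 changes lie between -0.33 (Dnaic1) and 0.26 (Cfap43), far inside the dashed lines at 1 log2 unit.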

How the data were processed

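RNA from 6 samples, all labelled as retina, was hybridised to one-colour Affymetrix arrays. The deposited file holds log2 values; per the submitters' processing notes the authors used RMA, and neither the software nor the chip definition is stated in the sources used here. RMA gives arrays like distributions, so a change in total RNA is not visible. Of 45037 probe sets other than 64 controls, 34945 name exactly 1 gene in the platform annotation. All 62 members matched the RefSeq table.

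Differences of 1 array from the mean of 5 were computed with pandas 2.3.3 (Python 3.11.15) and have no test. The genotypes were tested with limma 3.58.1 (R 4.3.3; lmFit, eBayes), two-sided, at a Benjamini-Hochberg adjusted p of 0.05 over all 18193 genes. The procedure was tested on simulated data. The rule for named genes took Foxj1, the 12 largest differences, members below by over 1 log2 unit, members high in retina, those nearest the limit, those with an unadjusted p under 0.05, and up to 4 genes of each other list. Other members are named to account for all 62; all 6 values of Dnah2, Dnah6, Dnah11, Dnah12, Tekt2, Tekt4, Cfap69 and Cfap300, which are past the limit, are given beyond the rule. Not all list genes of the rule are printed. Other genes (Tubb4b, Enkd1, Arl3, Wdr78, Ccno, Cdc20b, Foxa2, Rfx1, Rfx4, E2f4, Ift43, Omp, Cldn2, Kl, Scgb1a1, Scgb3a2) were chosen after their values were seen. The members and lists were chosen with earlier results of these data known, and roles were assigned after the members were found. Probe-set choice, scaling, reference arrays, thresholds and model settings were varied. Figures used matplotlib 3.10.9.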

Additional observations from a re-analysis of the deposited data

How the results depend on the processing

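The count of members above the limit (24) stayed within 1.5-fold under other probe-set rules, 3 scalings, other reference arrays and with a control floor (19, chosen after seeing the data). It was 24 to 25 with each reference array left out. It moved to 13 at 3 log2 units and to 12 of 30 with dim probe sets removed. The shares of all genes at these settings are not given here. Dimness was judged on the mean of all 6 arrays. A probe set high in the array labelled knockout replicate 3 was thus kept more readily. Removing dim probe sets is therefore no independent check of the count or of the median difference. Members below were 0 in all settings except 2 at 1 log2 unit, and 0 with each array left out. The median difference (1.55) was 0.87 with the mean of all probe sets, 1.45 with the probe set highest in the other 5 arrays, 1.61 with dim probe sets removed, 1.49 against wild type only, 1.59 against the other knockout arrays only and 1.38 with the floor; with each array left out it was 1.49 to 1.58. Members above background numbered 29, or 12 by a mean above 6 log2 units. None of the members taken by the rule for named genes changed sign. The signs of the other members were not followed through these settings. By limma 0 members were called in every setting run for 5 and 6 arrays that left at least 2 arrays in each group. These settings include the replicate block (0 members in both, with 3 and 0 genes in all) and comparisons with 1 array left out. In them a limma unadjusted p under 0.05 was reached by at most 6 members, beside 672 of all 18193 genes. That was the comparison of 5 arrays without wild-type replicate 1. Weighting the arrays moved the members' median with 6 arrays from 0.36 to 0.02; the cause was not tested, as for the other values that moved. The deviations of same-numbered samples from their group means correlated at r = -0.08 to 0.08. With so few arrays per group this cannot tell whether such samples share more than a number. Without depth or detection calls, dim probe sets limit these values.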
